A study of Rattus norvegicus with 4 samples.

Results

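The genes described here are 10 core genes of protein folding and degradation at the endoplasmic reticulum (ER): the chaperones Hspa5, Hsp90b1 and Hyou1, the co-chaperone Dnajb9, the degradation factor Herpud1, the transcription factor Xbp1, the lectin chaperones Calr and Canx, and the disulfide isomerases Pdia3 and Pdia4. They were chosen by name, with earlier results of these data known. A gene was measured by its brightest probe among those whose RefSeq accession maps to its current rat symbol, and 9 of the 10 had such a probe, out of 8963 named genes on the array. Xbp1 had none and is given no value.

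Proteins that enter the secretory pathway fold in the ER with the help of resident chaperones, lectins and disulfide isomerases, and those that fail are drawn back into the cytosol and degraded there, a route called ER-associated degradation. When unfolded proteins build up, the membrane sensors of the unfolded protein response (UPR) raise the transcription of these helpers through the transcription factors XBP1, ATF6 and ATF4. Kidney tubule cells make large amounts of membrane transporters, and this response is known from models of tubule injury.

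RNA came from NRK-52E, an epithelial line from rat kidney tubule, 1 sample for each of 4 doses. Confluent cultures grown with 10% serum were put for 1 h into medium with 0% (the control), 0.003%, 0.006% or 0.009% hydrogen peroxide (H2O2), then washed and left in medium without serum for 12 h, so the control culture was starved of serum too. Each sample was read on 1 Agilent 1-colour array, so there were no replicates, and no difference between 2 doses could be tested against the spread between cultures.

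All 4 arrays lay on 1 slide in the order of the dose, so dose and place on the slide cannot be told apart. Each array was scaled to the 75th percentile of its spot signals, which was 180 at 0%, 168 at 0.003%, 158 at 0.006% and 121 at 0.009%. A level below is the signal as a multiple of that percentile, and a difference is the log2 ratio of 2 such levels, with the scanner software's spot error. That error was 0.20 for the bright probes and does not hold the spread between cultures. On a single array it was 0.144 for every measured member but the dim Canx (0.158 to 0.177). It hardly varied by probe, so a difference given in spot errors restates its size and is no test. Between 5 or more copies of a probe on the array, the SD of the log2 difference from control had medians of 0.076, 0.067 and 0.077 over the 3 doses, each below that spot error. In RNA of a whole culture, fewer living cells and less RNA per cell cannot be told apart.

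The labelled cell type was set against marker lists. Among tubule epithelium markers, Cdh16, Krt8, Krt18, Krt19 and Ocln were well above background on every array and Pax8 and Epcam on none, and the list had a summed level of 61.0 in the control, 58.1 at 0.003%, 45.9 at 0.006% and 39.7 at 0.009%. Krt8, with log2 levels of 5.20 at 0.009% and 5.89 in the control, made up most of that sum, while Krt18 (-0.86 and -3.95) and Krt19 (0.20 and -1.44) ran the other way. Among fibroblast markers, Col1a2, Col3a1 and Pdgfrb were well above background on every array and Thy1, Dcn and Lum on none. The fibroblast sum was 32.0 in the control, 9.20 at 0.003%, 13.2 at 0.006% and 19.6 at 0.009%. Of 5 macrophage and leukocyte markers 4 were detected on some array, with summed levels of 42.0, 27.2, 22.3 and 23.3, mostly of Cd14, while Cd68 was higher at 0.009% (2.04 against 1.16 in the control, log2 level), and of 3 endothelial ones 1, at 0.107 to 0.322. The part of these shifts in the results that follow was not tested.

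The stretches before the start sites are shown because the sequences through which the UPR acts can be read in them. Known elements are the ER stress response element (ERSE), here CCAAT, 9 bases of any kind and CCACG; ERSE-II, here ATTGG, any base and CCACG; the UPR element (UPRE), here TGACGTGG; and a C/EBP-ATF element, the kind bound by ATF4, here TGATGCAA. Each was searched on both strands from 250 bases before to 50 after the start, in RefSeq sequence of the build GRCr8. The parts CCAAT and CCACG were also counted alone. Each ERSE holds both, each ERSE-II holds CCACG and, on the opposite strand, CCAAT, and each UPRE holds CCACG on the opposite strand. The 250 bases before the start follow, 5′ to 3′ along the gene, with letters of these 4 elements in capitals.
Hspa5 (chr3:38452766-38453015, plus strand): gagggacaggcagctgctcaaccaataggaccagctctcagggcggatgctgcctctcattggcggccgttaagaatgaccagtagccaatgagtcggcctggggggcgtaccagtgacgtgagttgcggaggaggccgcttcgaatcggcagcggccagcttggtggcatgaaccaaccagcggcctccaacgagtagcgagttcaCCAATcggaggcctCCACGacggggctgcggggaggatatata
Hsp90b1 (chr7:23012294-23012543, minus strand): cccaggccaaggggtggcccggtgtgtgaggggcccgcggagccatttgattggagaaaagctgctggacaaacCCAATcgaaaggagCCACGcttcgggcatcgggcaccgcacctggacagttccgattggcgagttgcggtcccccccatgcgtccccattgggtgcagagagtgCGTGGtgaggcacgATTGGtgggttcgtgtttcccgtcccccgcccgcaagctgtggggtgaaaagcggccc
Herpud1 (chr19:10614708-10614957, minus strand): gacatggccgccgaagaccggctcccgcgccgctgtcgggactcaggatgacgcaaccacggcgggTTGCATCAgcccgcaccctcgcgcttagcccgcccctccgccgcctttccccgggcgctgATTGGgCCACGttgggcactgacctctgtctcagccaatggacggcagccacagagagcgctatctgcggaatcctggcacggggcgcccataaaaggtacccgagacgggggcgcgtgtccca
Hyou1 (chr8:53602632-53602881, plus strand): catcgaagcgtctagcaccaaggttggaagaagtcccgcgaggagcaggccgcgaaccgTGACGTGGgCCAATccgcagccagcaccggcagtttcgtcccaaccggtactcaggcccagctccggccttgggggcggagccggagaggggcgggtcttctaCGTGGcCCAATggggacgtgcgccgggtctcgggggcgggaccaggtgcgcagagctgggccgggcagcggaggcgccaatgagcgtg
Dnajb9 (chr6:67002052-67002301, minus strand): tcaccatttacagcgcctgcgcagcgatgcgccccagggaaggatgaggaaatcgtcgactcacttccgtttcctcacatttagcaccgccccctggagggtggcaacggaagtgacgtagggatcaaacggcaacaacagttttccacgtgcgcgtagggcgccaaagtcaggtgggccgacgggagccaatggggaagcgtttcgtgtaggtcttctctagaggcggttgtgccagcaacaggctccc
Calr (chr19:40213117-40213366, plus strand): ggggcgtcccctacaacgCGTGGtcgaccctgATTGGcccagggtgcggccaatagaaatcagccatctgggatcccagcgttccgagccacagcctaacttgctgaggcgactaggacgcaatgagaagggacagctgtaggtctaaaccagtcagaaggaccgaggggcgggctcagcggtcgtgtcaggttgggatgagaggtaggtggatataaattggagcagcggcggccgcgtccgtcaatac

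Windows were at hand for 9 of the 10 genes, 10 in all since Hyou1 has a pair of starts. Pdia3 had no window and was not searched, while Xbp1 had one, so these are not the same 9 genes as those measured. An ERSE stood in 5 of these 10 windows, those of Hspa5, Hsp90b1, Calr, Canx and Xbp1, against 22 of all 33469 windows (0.0657%). Hsp90b1 held 2, which began 176 and 72 bases before the start, the second on the other strand, and Hspa5 held 1, from 43 to 25 bases before it. In Calr the element lay farther off, from 232 to 214 bases before the start and on the other strand, and in Canx from 230 to 212.

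ERSE-II stood in the windows of Herpud1 (124 to 114 bases before the start) and of the first Hyou1 start (188 and 88 bases before it, both on the other strand), against 17 of all windows (0.0508%). In Hyou1 the upstream copy overlaps the only UPRE among the 10 windows, an element found in 199 of all windows (0.595%). The C/EBP-ATF element was matched in Herpud1 alone, 184 to 177 bases before the start and on the other strand, and in 266 of all windows (0.795%). Dnajb9, Pdia4 and the second start of Hyou1 held none of the 4 elements in these letters. The parts are common: CCAAT stood in 37.5% of all windows and in all 10 of these, CCACG in 31.6% and in 9. The elements were searched as known ones of the UPR, which raises such genes, so these shares describe the windows and are no test. A match is letters in a window and not shown to be bound.

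**Figure D1:**
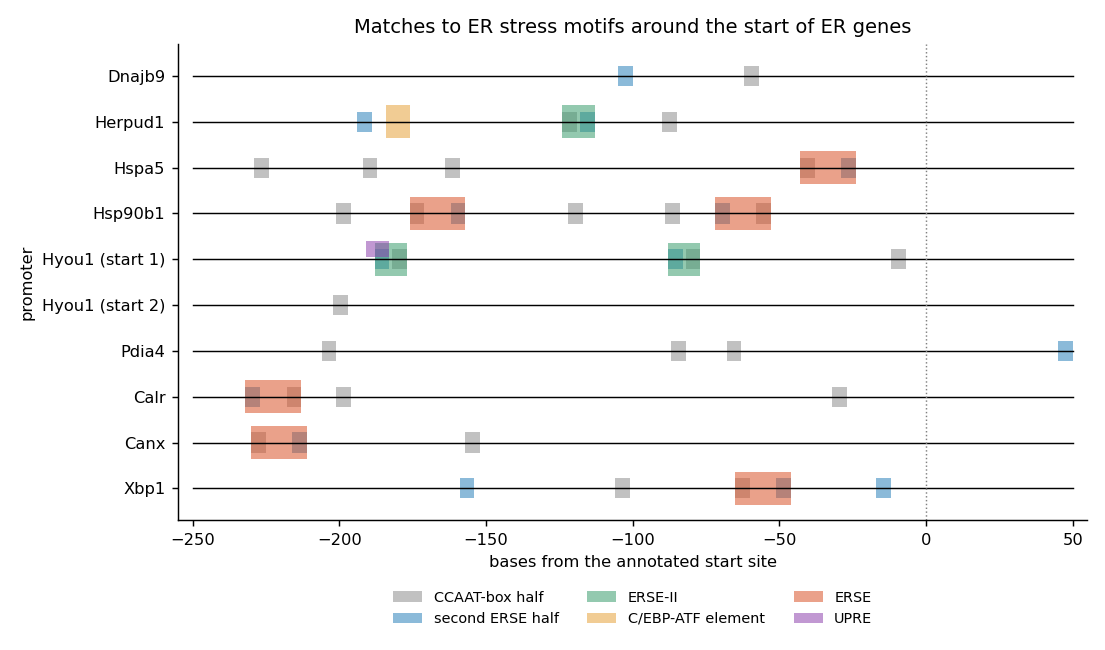
Matches to the 4 elements and to the parts of the ERSE (coloured blocks) along 10 windows from 250 bases before to 50 after the start site (dotted line); the horizontal axis is distance from the start in bases. ERSE blocks sit in Hspa5, Hsp90b1, Calr, Canx and Xbp1, and ERSE-II blocks in Herpud1 and the first start of Hyou1.

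In the treated cultures the co-chaperone, the degradation factor and the Hsp70 and Hsp90 chaperones of the ER stood at least 2-fold above the control on the 75th percentile scale, while the lectins and disulfide isomerases stayed within 2-fold, though at 0.009% with spike-in scaling both lectins were more than 2-fold lower. Hyou1 passed 2-fold at 0.006% on the 75th percentile scale, but under no other scaling nor with normexp. At least 2-fold higher were 4 of 9 genes at 0.003%, 5 of 9 at 0.006% and 4 of 9 at 0.009%. Of all features compared (named genes, or probe targets without a name), 14.9%, 14.9% and 16.5% were so at these doses. The count at 0.006% was 3 with spike-in scaling (6.44% of all features). That at 0.009% was 2 with array median values (6% of all features) or quantile values (9.92%), and 1 with spike-in scaling (2.38%). On the 75th percentile scale the members and all features were also compared for lower values. None of the 9 was at least 2-fold lower, against 13.6%, 10.5% and 7.4% of all features. The median of the 9 genes was 0.91, 1.04 and 0.70 on the log2 scale, while that of all features was 0.03, 0.01 and 0.13. With spike-in scaling the median at 0.009% was -0.49 for the 9 genes and -1.02 for all features. All 9 probes were well above background on all 4 arrays, so no difference is a bound.

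**Figure D2:**
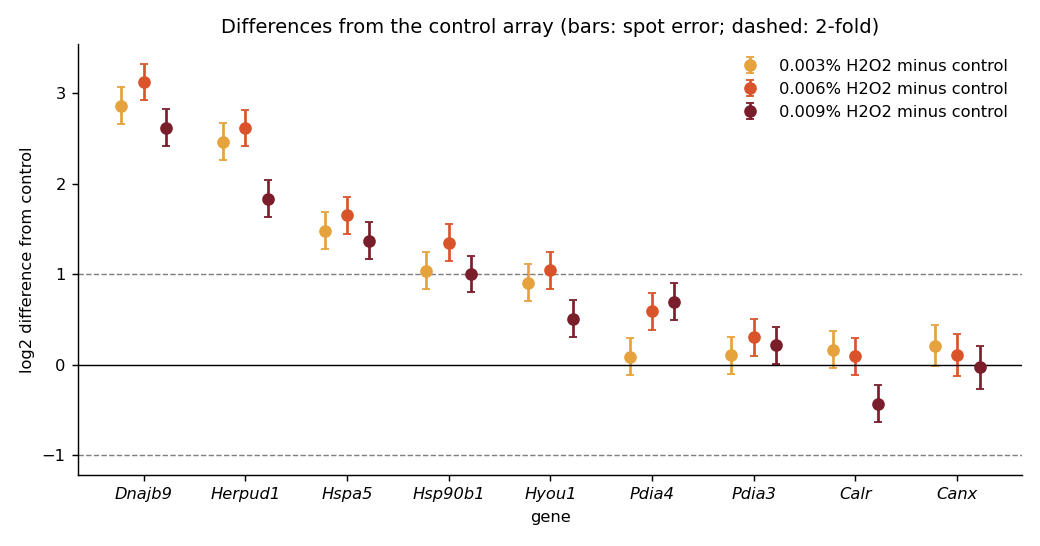
Log2 difference from the control array (vertical axis) of 9 ER genes (horizontal axis) at 0.003%, 0.006% and 0.009% H2O2, 1 array each; bars are the spot error and dashed lines mark 2-fold. Dnajb9 and Herpud1 lie highest at every dose, Pdia4 lies nearest 0 at 0.003%, and Calr is at -0.43 at 0.009%.

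Hspa5 encodes BiP, the Hsp70 chaperone of the ER lumen, which binds exposed hydrophobic stretches and also holds the UPR sensors inactive. Its level was 162 at 0%, 452 at 0.003%, 509.6 at 0.006% and 419 at 0.009%. In these levels all 3 treated arrays were high and close together, and the control was low. Over the control this was 2.79-fold at 0.003% (1.48 ± 0.20, log2 with spot error), 3.15-fold at 0.006% and 2.59-fold at 0.009%. Between the treated arrays the largest difference of these levels was -0.28 (0.009% against 0.006%), within 1.96 spot errors. This closeness depended on the scaling. For Hspa5 the difference of 0.009% against 0.003% was -0.11 in these levels and -0.31 with normexp. It was -0.53 with array median scaling, -0.44 with quantile normalization and -1.11 with spike-in scaling. Before any scaling its signal was 29179, 75772, 80571 and 50763. At 0.009% its difference was 1.37, but 0.82 under quantile normalization, 0.81 after scaling to the array median and 0.19 after scaling to the spike-in probes, so there the 2-fold mark was passed under some scalings only.

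Hsp90b1, the Hsp90 chaperone of the ER, which folds integrins and Toll-like receptors, had levels of 27.4, 56.3, 69.7 and 54.9 from 0% to 0.009%. Its differences of 1.04, 1.35 and 1.00 lay just past 2-fold at the lowest and highest doses. Under array median, quantile and spike-in scaling the first was 0.89, 0.97 and 0.85, short of 2-fold, and the last 0.44, 0.86 and -0.18. At 0.006% it was 0.80 on the spike-in scale. A dimmer second probe of the gene gave 1.73, 2.44 and 2.51, more by 0.69, 1.09 and 1.51. The probes of this gene thus disagree on its size, and on whether 0.009% lies below 0.006% (by 0.34 with the brighter probe) or level with it. Both put every treated array above the control on the 75th percentile scale.

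Hyou1, a large relative of Hsp70 that exchanges the nucleotide of BiP, had levels of 49.2, 92.3, 102 and 70.1. It stood 1.88-fold over the control at 0.003%, just short of the 2-fold mark, 2.06-fold at 0.006% and 1.42-fold at 0.009%. At 0.006% its log2 difference of 1.04 was 0.73 on the array median scale, 0.81 with quantile normalization, 0.49 on the spike-in scale and 0.91 with normexp, each short of 2-fold. The last difference, 0.51, turned negative after scaling to the array median (-0.05) or to the spike-in probes (-0.68), and the signal before scaling was 8496 at 0.009%, against 8877 in the control. The arrays at 0.003% and 0.006% differed by 0.14, within the spot error, while 0.009% was below 0.006% by a log2 difference of -0.53. Its second, dim probe gave 1.19, 1.21 and 0.59.

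Dnajb9 encodes a J-domain co-chaperone of BiP that is itself a target of XBP1 and helps send misfolded proteins to degradation. It was the farthest above the control of the 9 genes, with a level of 2.62 in the control, 19.1 at 0.003%, 22.9 at 0.006% and 16.1 at 0.009%. The treated arrays do not come near the control. The folds were 7.28 (2.86 ± 0.20), 8.73 (3.13) and 6.14 (2.62), and of all features 159, 146 and 303 had a larger difference. Its second probe gave 3.06, 3.27 and 2.87, so the probes agree to within 0.25. Every scaling and background setting kept it at least 2-fold above the control at every dose, with 1.43 at 0.009% under spike-in scaling as the smallest value.

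Herpud1 encodes a membrane protein that joins the ubiquitin ligase complex of ER-associated degradation. Its level was 16.2 at 0%, 89.7 at 0.003%, 99.6 at 0.006% and 57.8 at 0.009%. The lower treated doses lay close together, and 0.009% lay between them and the control. The folds over the control were 5.53 (2.47 ± 0.20), 6.14 (2.62) and 3.57 (1.83), and 291, 277 and 852 features had a larger difference. The array at 0.009% was below that at 0.003% by a log2 difference of -0.63, or 3.11 spot errors, more in units of error than for any other of the 9 genes in that pair of arrays. Its second probe gave 2.73, 3.04 and 2.06. With spike-in scaling its value at 0.009% was 0.65, short of 2-fold.

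**Figure D3:**
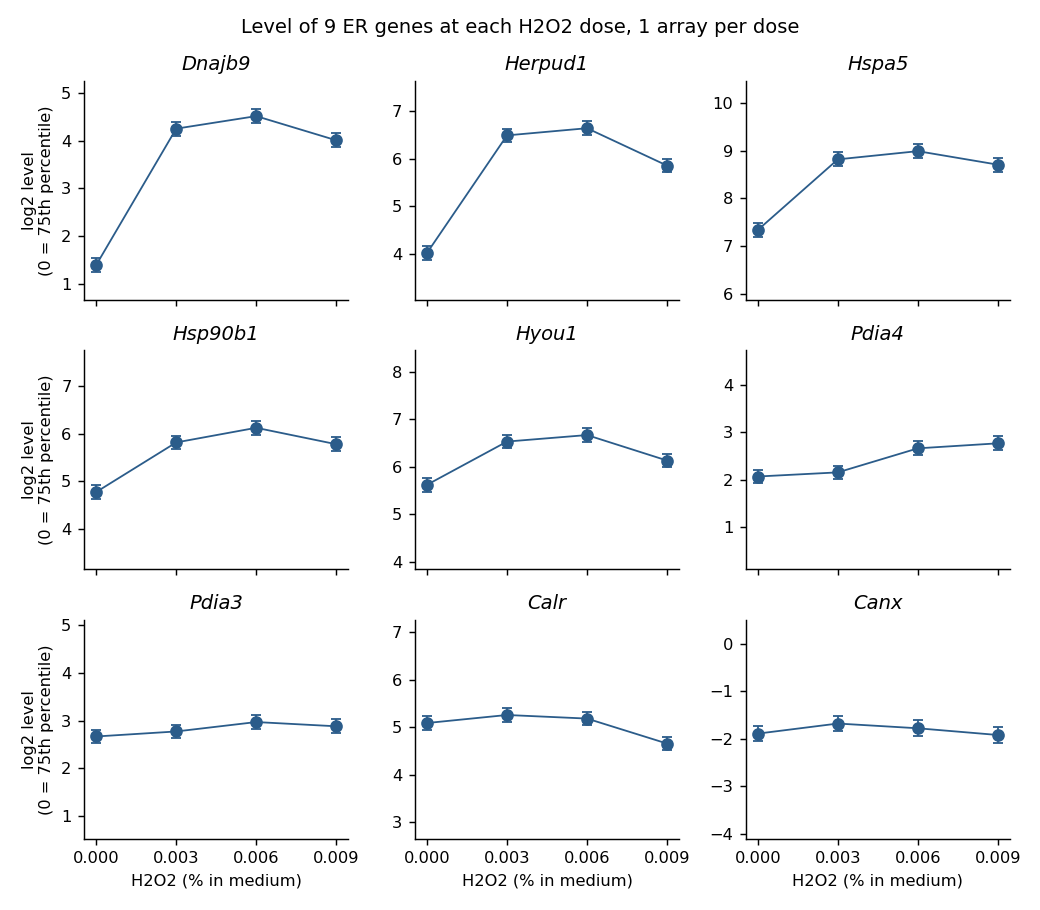
Log2 level (vertical axis, 0 is the array's 75th percentile) of 9 ER genes against the H2O2 dose in % (horizontal axis), 1 array per dose, bars showing the spot error; each panel spans the same number of log2 units. The top row and Hsp90b1 and Hyou1 sit lowest in the control and highest at 0.006% on this scale. Pdia4 sits highest and Calr lowest at 0.009%, and Pdia3 and Canx are nearly flat.

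Calr and Canx encode calreticulin and calnexin, the lectins that hold glycoproteins in the folding cycle, calreticulin in the lumen and calnexin in the membrane. Calr had levels of 34.0, 38.2, 36.25 and 25.2, lowest at 0.009%. Its differences were 0.17, 0.09 and -0.43 (spot error 0.20), the first -0.02 on the spike-in scale and the second -0.22 on the array median scale and -0.46 on the spike-in scale. The value at 0.009% was negative under every setting and went to -1.62 with spike-in scaling. Canx had levels of 0.270, 0.312, 0.291 and 0.264, close to each other. Its differences of 0.21, 0.11 and -0.03 lay within the spot error (0.22, 0.23 and 0.24), the second was -0.44 with spike-in scaling and the third 0.18 with normexp. Its probe was dim, with an unscaled signal of 48.6, 52.3, 46.1 and 32.0. Both genes hold an ERSE in the window shown or described above, as do Hspa5 and Hsp90b1.

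Pdia3 and Pdia4 encode thioredoxin-like enzymes that form and shuffle disulfide bonds, Pdia3 as the partner of the lectins. Pdia3 had levels of 6.34, 6.82, 7.82 and 7.36, with differences of 0.11, 0.30 and 0.21, none beyond 1.96 spot errors, and all 3 turned negative when arrays were scaled to their median or to the spike-in probes. Pdia4 had levels of 4.19, 4.45, 6.32 and 6.80 and was the only gene of the 9 with its highest level at 0.009%. Its differences were 0.09, 0.59 and 0.70. The first was -0.06 on the array median scale, and the last 0.14 there, below the 0.28 at 0.006%, and -0.49 on the spike-in scale. The arrays at 0% and 0.003% were alike in Pdia4, as were those at 0.006% and 0.009%, while the step between these pairs was 0.50 (2.47 spot errors).

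In the comparison of the highest with the lowest treated dose, none of the 9 genes was at least 2-fold higher or lower. Of all features 12.3% were higher and 5.31% lower by that much. This comparison moved with the scaling: with array median scaling 2 of 9 were at least 2-fold lower (Herpud1 at -1.05 and Calr at -1.01, 15.4% of all features), and with spike-in scaling 7 of 9, all but Pdia3 and Pdia4 (40.7% of all features). Of the 9, Pdia4 was higher at 0.009% by 0.61 (-0.39 on the spike-in scale), Pdia3 by 0.11 (-0.31 on the array median scale), and the other 7 had negative differences. Of these 7, Hsp90b1 was at -0.04 but at 0.37 with the mean of its probes, and Canx at -0.24 but at 0.06 with normexp. Herpud1 (-0.63), Calr (-0.60) and Pdia4 exceeded 1.96 spot errors. The median of the 9 genes was -0.24 and that of all features 0.16. A straight line over the dose, fitted with limma on the 4 arrays, was the test across samples that single arrays allow, and called none of the 9 genes. Over all 22352 features it called 0% after Benjamini-Hochberg adjustment, 3095 having an unadjusted p under 0.05. The adjusted p of the 9 genes ran between 0.421 (Pdia4) and 0.959 (Canx), in a model that takes any bend over the dose as error.

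**Figure D4:**
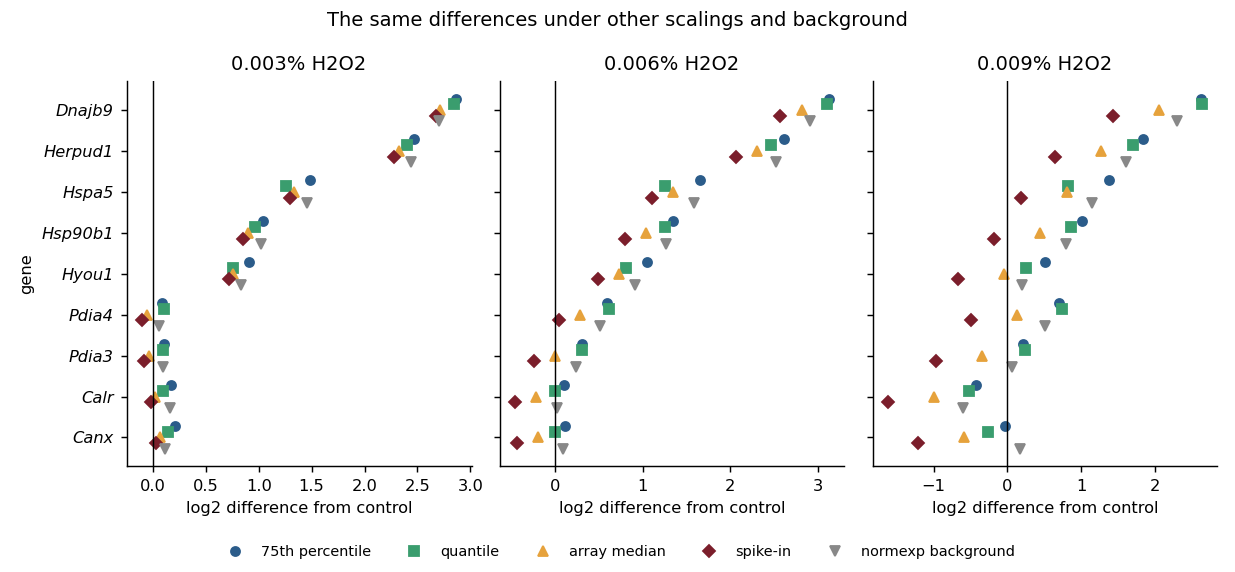
Log2 difference from the control (horizontal axis) of the 9 genes (rows) at each H2O2 dose (panels) under 4 scalings between arrays and with normexp background. The symbols lie close together at 0.003% and spread at 0.009%, where spike-in scaling puts Hsp90b1 at -0.18 and Dnajb9 at 1.43.

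The settings differed most at 0.009%. Array median scaling moved the median of all features by -0.15, -0.25 and -0.53 over the 3 doses and spike-in scaling by -0.19, -0.49 and -1.15, quantile normalization by -0.15 at 0.009%. With spike-in scaling at 0.009%, 1 of 9 genes (Dnajb9) was at least 2-fold higher and 2 (Calr at -1.62 and Canx at -1.22) at least 2-fold lower, where 2.38% of all features were higher and 51.1% lower. A single factor per array leaves the rank of a gene among the others as it is: 1456, 1142 and 1786 features lay above Hspa5 at the 3 doses.

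Other genes of the pathway were taken from lists, and their counts are to be read beside the shares of all features. On the 75th percentile scale 14.9%, 14.9% and 16.5% were at least 2-fold higher over the 3 doses and 13.6%, 10.5% and 7.4% lower. The shares were 11.9%, 9.45% and 6% higher and 16.9%, 18.3% and 22.6% lower on the array median scale. They were 11.2%, 6.44% and 2.38% higher and 17.9%, 26.7% and 51.1% lower on the spike-in scale. Among 19 other ER chaperones and co-chaperones measured, 2, 1 and 0 were at least 2-fold higher over the 3 doses and 2, 1 and 0 lower, with medians of -0.08, -0.11 and -0.18. The counts lower were 3, 1 and 6 on the array median scale and 4, 5 and 14 on the spike-in scale. Creld2, a UPR target that binds disulfide isomerases, was at 2.34, 2.17 and 0.94, the last -0.25 with spike-in scaling. Dnajc3, a J-domain co-chaperone that also inhibits eIF2alpha kinases, was at 1.06, 0.95 and 0.19, the last -0.37 with array median scaling, and the proline isomerase Ppib was at 0.25, 0.40 and 0.57, the first -0.01 with quantile normalization and the others -0.15 and -0.62 with spike-in scaling. Sil1, which like Hyou1 exchanges the nucleotide of BiP, was at -1.20, -1.06 and -0.71, and the proline isomerases Fkbp9 and Fkbp10 were at -1.01, -0.63 and -0.47, and at -0.85, -0.66 and -0.49. The pair of exchange factors thus lay on opposite sides of the control on the 75th percentile scale, Hyou1 above and Sil1 below, though Hyou1 was below too at 0.009% with array median or spike-in values.

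Of 9 other disulfide isomerases and ER oxidases, 1 was at least 2-fold higher at each dose, and no gene was lower by that much, though 0, 1 and 3 were on the spike-in scale. Their medians of -0.07, 0.20 and 0.21 were all negative on the array median and spike-in scales. That 1 was Qsox1, a sulfhydryl oxidase of the secretory pathway, named after its values were seen. It was not well above background in the control, and at least 14.4-fold, 23.5-fold and 34.3-fold higher at the 3 doses, or 1.67, 2.25 and 2.62 (log2) with normexp. Of the genes named by the rule, Tmx1 was at 0.49, 0.35 and 0.26, the oxidase Ero1a at 0.46, 0.20 and 0.21 and the ER peroxiredoxin Prdx4 at -0.07, 0.22 and 0.45. All 3 were negative at 0.009% on the array median scale and at 0.006% and 0.009% on the spike-in scale. P4hb, the classical disulfide isomerase, was at -0.39, -0.22 and -0.30, Erp29 at -0.72, -0.61 and -0.25, and Pdia5 at -0.53, -0.09 and 0.19, the last -0.37 on the array median scale.

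Of other genes of ER-associated degradation, 4 of 19, 4 of 18 and 1 of 18 measured were at least 2-fold higher, and 2, 0 and 0 lower, with medians of 0.52, 0.34 and 0.03. The second was -0.21 on the spike-in scale and the last -0.53 on the array median scale. The counts higher were 4, 1 and 0 and those lower 3, 2 and 3 on the array median scale, and 4, 0 and 0 higher and 3, 4 and 11 lower on the spike-in scale. Ubqln1, a shuttle to the proteasome, was at 1.43, 1.35 and 1.15, the last -0.03 with spike-in scaling, the ubiquitin-conjugating enzyme Ube2j2 at 1.29, 1.20 and 0.58, and the VCP-binding Ubxn4 at 1.25, 1.07 and 0.80, these too negative at 0.009% with spike-in scaling. Sel1l, the scaffold of the ligase complex that Herpud1 joins, was the fourth gene past 2-fold at the lower doses, at 1.37, 1.12 and -0.06, and was named after its values were seen. Herpud2, the paralogue of Herpud1, was at -1.02, -0.85 and -0.67, opposite in sign to Herpud1 at every dose and under each scaling. The deglycosylating enzyme Ngly1 was at -1.07, -0.99 and -0.65 and the lectin Os9 at -0.79, -0.57 and -0.59.

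Among sensors and transcription factors of the UPR, 6 of 15, 6 of 15 and 5 of 16 were at least 2-fold higher and 1, 2 and 3 lower, with medians of 0.37, 0.21 and 0.39. On the array median scale these medians were -0.10 at 0.006% and -0.17 at 0.009%, and 6, 5 and 4 genes were higher and 2, 3 and 4 lower. On the spike-in scale 6, 4 and 4 were higher and 3, 5 and 7 lower. Lower calls outnumbered higher ones there at 0.006% and 0.009%, as they did among all features. Of these, 26.7% and 51.1% were lower at those doses and 6.44% and 2.38% higher. Ppp1r15a, which directs the phosphatase of eIF2alpha, was at 4.46, 4.84 and 4.69, and Ddit3, which encodes CHOP, at 3.19, 3.24 and 2.31. The pseudokinase gene Trib3 stood 22.7-fold, 24.5-fold and 16.0-fold above the control. Atf4, which acts upstream of these genes, was at 2.48, 2.69 and 2.64. Nfya and Nfyb, subunits of the factor that binds CCAAT, were at 1.68, 1.31 and 0.77, and at 1.66, 1.43 and 0.96, both negative at 0.009% with spike-in scaling. Atf4 and these subunits were named after their values were seen, as was the sensor gene Eif2ak3. It was at -0.47, 0.06 and 0.18, with spot errors of 0.34, 0.33 and 0.33, and negative at every dose on the array median scale. The sensor genes Ern1 and Atf6 had no probe that maps to their symbols and are given no value.

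The 3 lowest genes of this list, bounds aside, and Mbtps2 were below the control. Mbtps1, the protease that makes the first cut in ATF6, was at -0.84, -1.03 and -1.14, and Mbtps2, the protease of the second cut, was well above background in the control only and at least 4.32-fold, 3.0-fold and 3.08-fold lower. With normexp Mbtps2 was at -0.42, -0.29 and -0.02, and it was named after its values were seen. Atf6b, the relative of ATF6, was at -0.86, -0.95 and -0.95, and Wfs1, an ER membrane protein induced in the UPR, at -0.39, -0.49 and -1.01. All 4 were negative at every dose under each scaling. Creb3l3, measured at 0.009% alone, was at least 2.41-fold higher there, or 0.61 (log2) with normexp, and was named after its value was seen.

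Import and N-glycosylation genes lay on both sides of the control. Of 15 genes none was at least 2-fold higher, and 0, 1 and 1 lower, with medians of 0.01, 0.03 and 0.08, each of which was negative on the array median and spike-in scales. At 0.009% the count lower was 2 on the array median scale and 11 on the spike-in scale. The lower gene was Mogs, the first glucosidase to trim N-glycans, at -0.81, -1.26 and -1.51. Srp54a of the signal recognition particle was at 0.87, 0.78 and 0.46, its receptor subunit Srpra at -0.63, -0.67 and -0.70, the translocon-associated Ssr1 and Ssr3 at 0.42, 0.39 and 0.41, and at 0.48, 0.36 and 0.11, and the oxidoreductase subunit Tusc3 at -0.36, -0.22 and -0.04. On the array median scale the 3 positive values at 0.009% were negative, as were those of Ssr1 and Ssr3 at 0.006% on the spike-in scale.

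Chaperones of the cytosol are given beside those of the ER, with no test of the difference. Of 24 measured, 14, 14 and 12 were at least 2-fold higher, and no gene was lower by that much. The counts higher were 11, 7 and 5 on the array median scale and 8, 6 and 3 on the spike-in scale, where 1 gene was lower at 0.009%. Their medians were 1.03, 1.14 and 1.00, the last -0.19 on the spike-in scale. The inducible Hsp70 gene Hspa1a was at 5.44, 7.31 and 8.54 and its exchange factor Hsph1 at 2.58, 3.79 and 4.27, each largest at 0.009%, though on the spike-in scale Hsph1 was largest at 0.006%. Hspa1a was dim in the control (log2 level -3.01), and its differences with normexp were smaller, at 3.57, 5.35 and 6.51. Hspa5, Hyou1, Dnajb9, Herpud1 and the brighter probe of Hsp90b1 were largest at 0.006% on the 75th percentile scale, but all 5 at 0.003% on the spike-in scale, Hyou1 and Herpud1 also on the array median scale, and Hspa5 also with quantile normalization. The small heat shock protein Hspb8 was at 2.66, 2.96 and 2.60. Lowest of the list were Hspa2 at 0.41, -0.01 and 0.14, Cryab at 0.19, 0.61 and 0.93, and Hspa4 at 0.21, 0.65 and 0.97, those at 0.009% negative on the spike-in scale. At 0.003% Cryab was -0.12 with quantile normalization, and at 0.006% Hspa2 was 0.08 with normexp.

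**Figure D5:**
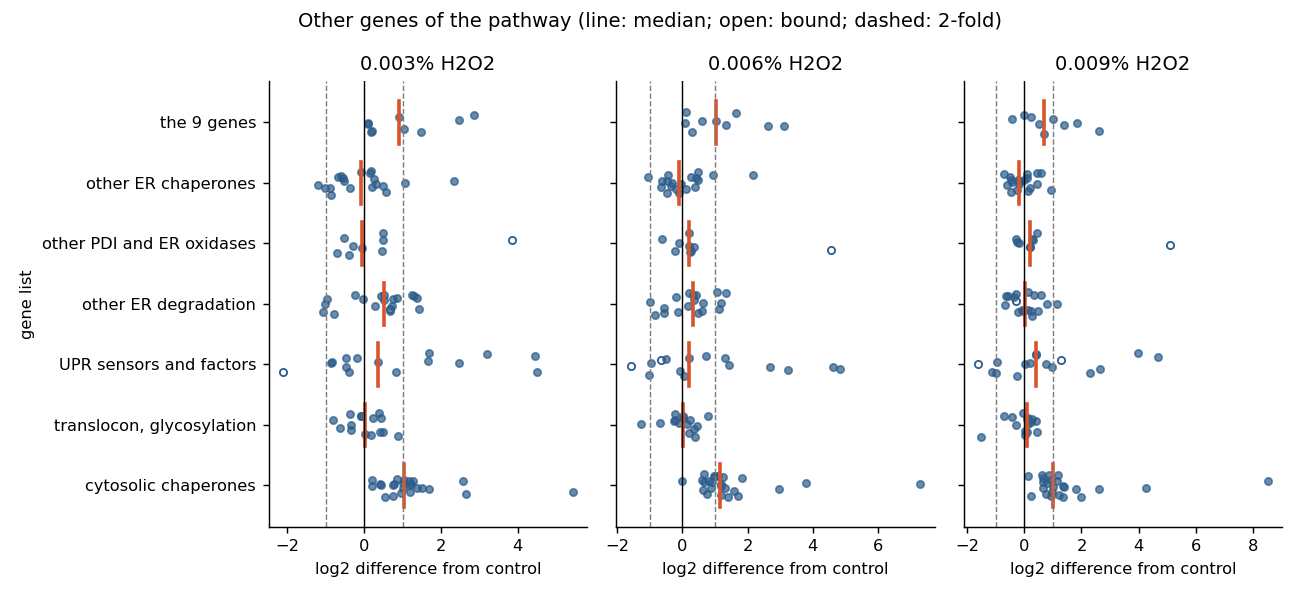
Log2 difference from the control (horizontal axis) of the measured genes of each list (rows, 1 point a gene) at each H2O2 dose (panels); red lines are medians, open points are bounds and dashed lines mark 2-fold. The medians of the 9 genes and of the cytosolic chaperones lie farther right than those of the other lists.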

How the data were processed

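The members and the lists were chosen with earlier results of these data known. Scanner files of 4 arrays (Agilent Feature Extraction 10.7.3.1, protocol GE1_107_Sep09, design 014879) hold, per the file headers, a background-subtracted linear intensity per spot with an error, not scaled between arrays. In the deposited table each value is a ratio on a linear scale, which equalled the mean intensity of a probe's spots over the array median in 100% of 41012 probes (tolerance 1e-06 of the value). Its column medians were 0.962, 0.955, 0.965 and 0.972.

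Outlier spots were left out, log2 intensities of a probe's spots averaged and the log2 of the 75th percentile of 43379 noncontrol spots subtracted. No noncontrol spot was saturated. RefSeq accessions named 26.4% of the probes through the GRCr8 gene table. Features without a name were grouped by the target in the array's design. A comparison used features well above background on either array (20895, 20677 and 21459 at the 3 doses). A side not above background was set to the higher of its value and the array's lowest signal well above background, giving a bound ("at least"). The trend used limma 3.58.1 in R 4.3.3 with 2 residual degrees of freedom. With 1 array per dose, the number of arrays limits the precision.

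The genes named are all measured members and, from each list, the 3 highest and 3 lowest by mean difference without bounds, plus the 5 genes nearest the members' median profile. Exceptions are marked. The alternatives were array median, quantile and spike-in scaling, normexp background (offset 50, on median spot signals, since the files hold no mean signal), the mean of all probes of a gene, outlier spots kept, the deposited table and a stricter background filter. Protein sequences were not used here. One cell type marker is not reported here by name.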

Additional observations from a re-analysis of the deposited data

How the results depend on the processing

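At 0.009%, the count of members at least 2-fold higher was 2 of 9 with array median scaling or the deposited table (6% of all features). It was 2 with quantile normalization (9.92%) and 1 with spike-in scaling (2.38%), against 4. At 0.006% it was 3 with spike-in scaling (6.44%), against 5. At 0.009% spike-in scaling put 2 members at least 2-fold lower (51.1% of all features), against 0, and turned Hsp90b1 to -0.18. Between 0.009% and 0.003%, under settings applied to that comparison after seeing the data, 2 members were at least 2-fold lower with array median scaling or the deposited table and 7 with spike-in scaling, against 0. The cause was not tested. Other counts of members were within 1.5 times the main one, and the trend called 0 features under each of its 5 alternatives, with 1958 to 7879 at an unadjusted p under 0.05. Of the 27 differences of the members, signs turned in 10 with spike-in scaling, 7 with array median scaling or the deposited table, 2 with quantile normalization and 1 with normexp. None turned with the mean of all probes, outlier spots kept or the stricter filter. The mean of all probes put Hsp90b1 at 1.76 at 0.009%, against 1.00. At 0.009%, Dnajb9, Herpud1, Hspa5 and Calr kept their sign under every alternative, Hsp90b1, Hyou1, Pdia3 and Pdia4 did not under 1 or more scalings, and Canx did not under normexp. No paired analysis was possible because each dose has 1 array.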

Other observations

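Over the 3 doses, the genes nearest to the median profile of the 9 ER genes (0.91, 1.04 and 0.70) were looked for among 4978 other named genes well above background on all 4 arrays, by Euclidean distance of the 3 log2 differences. They were Tuba1c, an alpha tubulin (0.90, 1.05 and 0.68, distance 0.020), Got1, the cytosolic aspartate aminotransferase (0.92, 1.02 and 0.74, distance 0.052), Timm23, a subunit of the mitochondrial import channel (0.95, 0.99 and 0.68, distance 0.071), Maco1 (1.03, 1.05 and 0.68, distance 0.12) and Hspbap1 (0.92, 1.12 and 0.80, distance 0.13). The likeness rests on 4 arrays and on 1 control array that all 3 differences share, and none of the 5 is an ER chaperone. The median profile holds the values of Hyou1 at 0.003% and 0.006% and of Pdia4 at 0.009%. At 0.003% the 9 genes ran from 0.09 (Pdia4) to 2.86 (Dnajb9), so likeness to the median is not likeness to each gene. Measured by the same distance to Hspa5, the brighter probe of Hsp90b1 was nearest of the other 8 members at 0.65. Hyou1 at 1.20 and Herpud1 at 1.45 came next, and Calr was farthest at 2.72. The dimmer probe of Hsp90b1, at 1.73, 2.44 and 2.51 over the 3 doses, was left out of this ranking.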
